A study of Mus musculus with 8 samples.

Results

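The vitamin D genes described here are 9 of the 21885 named genes in an RNA sequencing table of mouse skin, and they were chosen by name as the receptor, its partners, the enzymes that activate or degrade the hormone, and direct targets. They are the receptor gene Vdr, the partner genes Rxra and Rxrb, the activating enzyme genes Cyp2r1, Cyp27a1 and Cyp27b1, the degrading enzyme gene Cyp24a1, and the target genes Trpv6 and Spp1. All 9 were found in the table, and 8 of them passed the filter on low values, Cyp27b1 being the exception. The skin came from 2 groups of 4 libraries, MC903 plus phytic acid and MC903 alone, and the submitters titled the MC903 libraries control. Both groups carried MC903 (calcipotriol), a synthetic analogue of active vitamin D, which is put on the skin of mice to model atopic dermatitis. Phytic acid, also called inositol hexaphosphate, is a phosphate store of plant seeds. The labels name no strain, age, sex, dose or time, and they do not say whether each library came from its own mouse. The p-values therefore measure the spread between these libraries, which may be technical. Untreated skin was not analysed here, so each difference below is between skins that had both received a vitamin D receptor ligand. Values are FPKM (fragments scaled to the length of the gene and to the total of the library), which allows levels to be compared between genes.

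Active vitamin D enters the cell and binds the vitamin D receptor, which pairs with a retinoid X receptor and binds DNA at pairs of short half-sites. The precursor made in skin is hydroxylated first by Cyp2r1 or, to a lesser extent, Cyp27a1, and then by Cyp27b1, which makes the active hormone. Cyp24a1 breaks the active hormone down and is itself among the genes most strongly induced by the receptor. Keratinocytes have the receptor and both the last activating and the degrading enzyme, and in mice the receptor is also needed for hair follicle cycling. MC903 already carries the hydroxyl group that Cyp27b1 adds, so it acts on the receptor without that step.

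Of the 8 members tested, 3 were lower with phytic acid (Cyp24a1, Spp1 and Trpv6), 1 was higher (Cyp27a1), and 4 did not pass the test (Vdr, Rxra, Rxrb and Cyp2r1). A gene was called where limma gave an adjusted p (Benjamini-Hochberg, over all 12165 genes tested) under 0.05. Of all genes tested, 25.8% were called, 14.2% higher and 11.6% lower, and this is the background for every count of calls below. Leaving out MC903 replicate 1 reduced the calls over all genes to 2013 from 3134. With 1 library left out 2 to 4 members were called, and the count was 2 without phytic acid replicate 1, 3 or 4 or MC903 replicate 2 or 4, where Trpv6 and Cyp27a1 both lost their call. The libraries of the groups were fully separated for 3 of the 9 members (Cyp24a1, Spp1 and Cyp27a1), against 27.3% of all genes tested. The median log2 fold change of the 8 tested members was -0.05, beside 0.05 for all genes tested. Fold changes are given as log2(FPKM + 1) with phytic acid minus that with MC903 alone, which understates the change of low genes. The members thus differed from one another in direction and size, with Cyp24a1 far outside the rest.

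**Figure D1:**
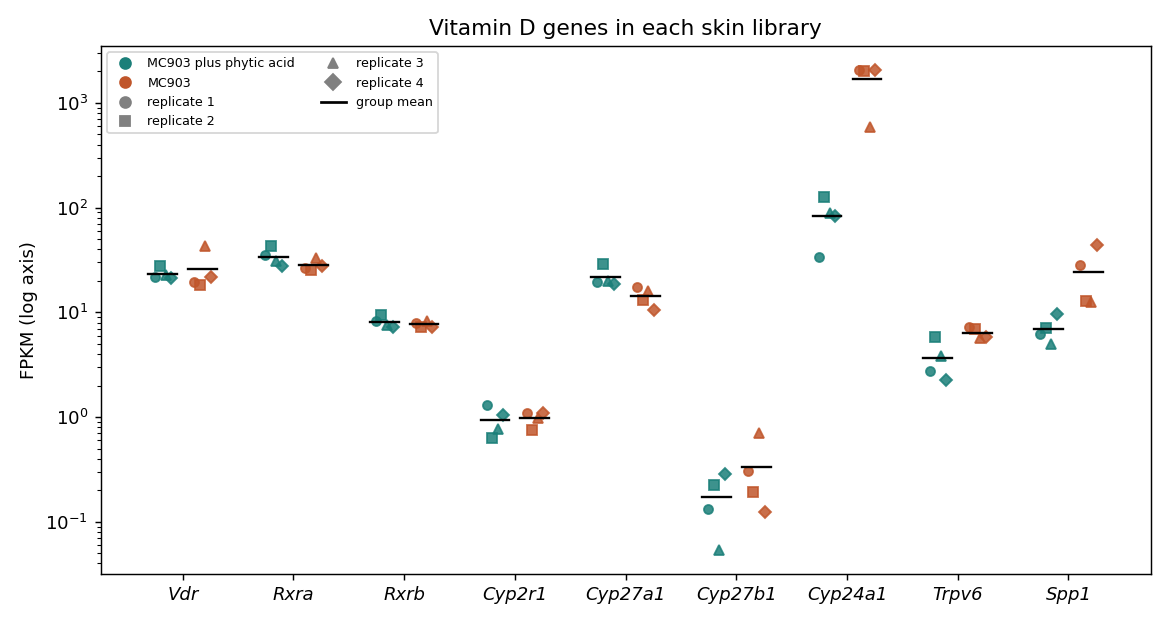
FPKM of the 9 vitamin D genes on a log axis, with MC903 plus phytic acid left of MC903 for each gene, 1 point per library (marker shape gives the replicate number) and a bar at the mean of 4 libraries. Cyp24a1 sits at 34.2 to 127 FPKM with phytic acid and at 585 to 2066 FPKM with MC903, whereas the groups overlap for Vdr, Rxra and Rxrb.

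Library totals recovered from the values were 38310033 to 42997270 reads with phytic acid and 31676934 to 37639477 reads with MC903, so the phytic acid libraries were all the deeper ones. Keratinocyte markers, which define the epidermis of the labelled tissue, were abundant in every library. The summed level of 7 basal markers was 2610 to 3100 FPKM with phytic acid and 4370 to 7930 FPKM with MC903, with 1 called higher and 1 lower. The lower 1 was Krt14, the largest part of the sum, at 1161 to 1730 FPKM with phytic acid and 3061 to 6642 FPKM with MC903. Krt15 was the higher 1, at 403 to 516 FPKM with phytic acid and 83.4 to 174 FPKM with MC903. Krt5 overlapped between the groups, and it and the remaining basal markers were not called. The summed level of 6 suprabasal markers was 7880 to 10200 FPKM with phytic acid and 4440 to 7240 FPKM with MC903. Of these, 4 were called higher (Krt10, Sbsn, Dmkn and Dsg1a), and Krt1 and Krtdap were not called. Krt1 overlapped between the groups, at 792 to 1339 FPKM with phytic acid and 951 to 2091 FPKM with MC903. Its log2 fold change was -0.43 (adjusted p = 0.308 by limma). Markers of skeletal muscle summed to 7020 to 8130 FPKM with phytic acid and 3230 to 3710 FPKM with MC903, with 5 of 6 called higher. In these whole-tissue samples, fewer cells of a type and less RNA per cell cannot be told apart. MC903 replicate 3 stood apart in its hair follicle markers, which summed to 4210 FPKM there, against 447 to 601 FPKM in the other MC903 libraries. With phytic acid this sum was 41.6 to 55.5 FPKM. The log2 ratio of Cyp24a1 to Cyp27b1 and the fold changes of Vdr, Cyp24a1, Atp2b1 and Cyp3a13 are also given without MC903 replicate 3.

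Vdr, which encodes the vitamin D receptor, did not pass the test. It stood at 21.7, 27.5, 22.8 and 21.2 FPKM with phytic acid (replicates 1 to 4), against 19.6, 18.4, 43.3 and 21.7 FPKM with MC903. The groups overlapped, and the highest value by far was that of MC903 replicate 3. The log2 fold change was -0.06 ± 0.24 (SE), with a 95% interval of -0.59 to 0.48 and an adjusted p of 0.880 by limma. Without MC903 replicate 3 it was 0.21 with an adjusted p of 0.180, so that the direction turned and the test was again not passed. In that library the inner root sheath keratin genes were at levels of abundant transcripts. Krt71 stood at 1373 FPKM there and at 0.029, 22.3 and 0.135 FPKM in MC903 replicates 1, 2 and 4. Krt25 stood at 959 FPKM, against 0.413, 16.5 and 0.108 FPKM in the other MC903 libraries, and Krt27 at 614 FPKM, against 0.204, 9.20 and 0.104 FPKM. With phytic acid none of these 3 keratin genes exceeded 0.221 FPKM. The part of hair follicle RNA in the Vdr value of this library was not tested.

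**Figure D2:**
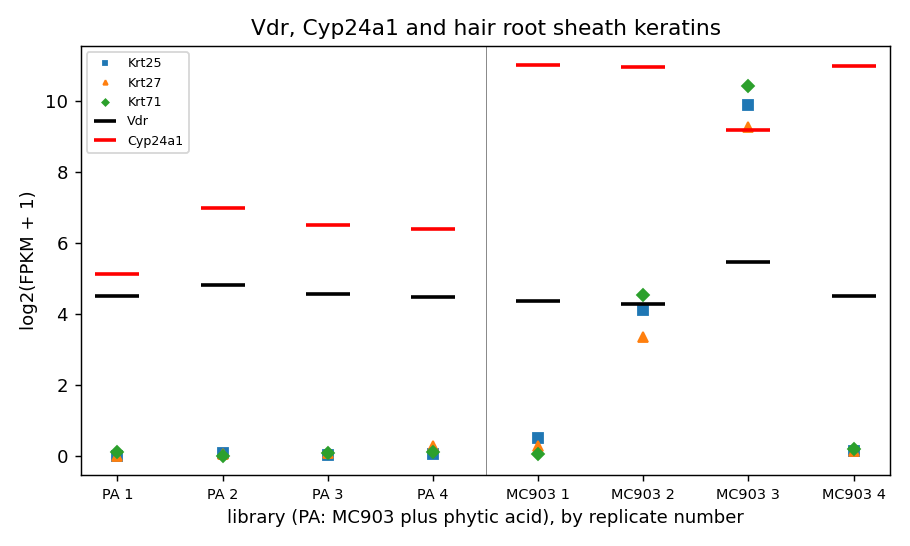
Levels as log2(FPKM + 1) of Vdr and Cyp24a1 (bars) and of the hair root sheath keratin genes Krt25, Krt27 and Krt71 (points) in each library, with phytic acid on the left. MC903 replicate 3 has the highest root sheath keratins (614 to 1373 FPKM), the highest Vdr (43.3 FPKM) and the lowest Cyp24a1 of the MC903 libraries (585 FPKM).

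The retinoid X receptor genes did not pass the test. Rxra, the main partner in epidermis, stood at 35.1, 42.7, 31.0 and 27.6 FPKM with phytic acid, against 26.8, 25.5, 33.0 and 27.7 FPKM with MC903. Of the phytic acid libraries, 2 lay above all MC903 libraries and the others lay among them. Its log2 fold change was 0.25 ± 0.14 (SE), with a 95% interval of -0.06 to 0.57 and an adjusted p of 0.218 by limma. Rxrb, which encodes a more widely spread partner, stood at 8.35, 9.39, 7.62 and 7.28 FPKM with phytic acid, against 7.94, 7.19, 8.34 and 7.27 FPKM with MC903. Its log2 fold change was 0.07 ± 0.10 (SE), with a 95% interval of -0.15 to 0.30 (adjusted p = 0.627 by limma). Rxra exceeded Rxrb 3.78 to 4.54 times per length with phytic acid and 3.37 to 3.95 times with MC903, and these ranges overlapped. Rxrg, the third partner gene, was low at 0.527 to 2.68 FPKM with phytic acid and 0.435 to 0.810 FPKM with MC903, and was not tested.

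The members' levels followed a similar order in both groups. With phytic acid the order of mean FPKM was Cyp24a1 (83.6), Rxra (34.1), Vdr (23.3), Cyp27a1 (21.7), Rxrb (8.16), Spp1 (6.97), Trpv6 (3.68), Cyp2r1 (0.939) and Cyp27b1 (0.174). Among neighbours in that order, the libraries overlapped between Cyp24a1 and Rxra, between Vdr and Cyp27a1, between Rxrb and Spp1, and between Spp1 and Trpv6. With MC903 the order was Cyp24a1 (1679), Rxra (28.2), Vdr (25.8), Spp1 (24.4), Cyp27a1 (14.3), Rxrb (7.68), Trpv6 (6.41), Cyp2r1 (0.981) and Cyp27b1 (0.334). There the libraries overlapped between Rxra and Vdr, Vdr and Spp1, Spp1 and Cyp27a1, and Rxrb and Trpv6. Cyp27b1 was the lowest of the 9 in every library, and Cyp24a1 the highest in all but phytic acid replicate 1, where Rxra stood at 35.1 FPKM.

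The activating enzymes were low or moderate, and 1 of them was higher with phytic acid. Cyp27a1, a mitochondrial sterol hydroxylase that also takes part in bile acid synthesis, stood at 19.4, 28.8, 19.8 and 18.8 FPKM with phytic acid, against 17.6, 13.2, 15.9 and 10.6 FPKM with MC903. All 4 phytic acid libraries lay above all MC903 libraries, and phytic acid replicate 2 was the highest. Its log2 fold change was 0.57 ± 0.18 (SE), with a 95% interval of 0.17 to 0.97 and an adjusted p of 0.0417 by limma. This call was close to the threshold. It was lost without phytic acid replicate 1 (0.0621), 2 (0.0904), 3 (0.0592) or 4 (0.0543) and without MC903 replicate 2 (0.0979) or 4 (0.103). It was also lost with no filter (0.0720), with median-of-ratios scaling (0.0536) and with the replicate number as a block (0.0642). Macrophages are a known source of this enzyme, and 10 macrophage and monocyte markers summed to 1150 to 1650 FPKM with phytic acid and 666 to 1130 FPKM with MC903. Of these markers 4 were called higher (Adgre1, Csf1r, Lyz2 and Ccr2), and 6 were not called. Lyz2 was the largest single part of this sum, and without it the sums overlapped, at 483 to 739 FPKM with phytic acid and 324 to 622 FPKM with MC903. The part of these markers in the Cyp27a1 result was not tested.

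Cyp2r1, the main first-step hydroxylase of liver, was near the lower limit of what was tested. It stood at 1.30, 0.629, 0.770 and 1.06 FPKM with phytic acid, against 1.10, 0.752, 0.980 and 1.09 FPKM with MC903, from 51 to 112 reads a library. The groups overlapped throughout, and the log2 fold change of -0.04 ± 0.13 (SE) had a 95% interval of -0.34 to 0.26 (adjusted p = 0.849 by limma). Cyp27b1, which makes the active hormone, was lower still. It stood at 0.133, 0.223, 0.0542 and 0.286 FPKM with phytic acid, from 14, 22, 6 and 30 reads. With MC903 it stood at 0.307, 0.194, 0.712 and 0.125 FPKM, from 25, 16, 69 and 12 reads. The value of MC903 replicate 3 was the highest, with a Poisson interval of 0.554 to 0.901 FPKM if each read is independent. On the same footing, the intervals of the other 7 libraries reached from 0.0199 FPKM at the lowest to 0.453 FPKM at the highest. They cover counting error only. Recovered reads of low genes were mostly even numbers, as for Casr (90, 58, 14 and 40 with phytic acid, 10, 14, 18 and 44 with MC903). If both mates of a fragment were counted, these intervals are too narrow. Whether the interval of MC903 replicate 3 would then stay above the others was not tested. No library reached an FPKM of 1, so Cyp27b1 was outside the test. With no filter (18483 genes) its log2 fold change was -0.17 ± 0.13 (SE), with a 95% interval of -0.47 to 0.13 and an adjusted p of 0.423 by limma.

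Cyp24a1, the enzyme that degrades active vitamin D and the usual readout of receptor activity, was the member with the largest difference. It stood at 34.2, 127, 89.6 and 83.2 FPKM with phytic acid, against 2066, 2008, 585 and 2056 FPKM with MC903. The groups were far apart: the highest phytic acid library was below the lowest MC903 library. Recovered reads were 4954 to 17382 with phytic acid and 78439 to 273715 with MC903, which is 0.0122% to 0.0454% and 0.208% to 0.736% of the library totals. Among the 21885 genes, Cyp24a1 ranked 301 to 1375 by level in the phytic acid libraries and 8 to 56 in the MC903 libraries. The log2 fold change was -4.29 ± 0.49 (SE), with a 95% interval of -5.38 to -3.20 and an adjusted p of 6.23e-04 by limma, and the mean was 20.1 times higher in MC903 than with phytic acid. Without MC903 replicate 3, which lay well below the other MC903 libraries, the log2 fold change was -4.74. Per length, Cyp24a1 exceeded Vdr 1.58 to 4.64 times in the phytic acid libraries. In MC903 replicates 1, 2 and 4 it did so 105, 109 and 94.9 times, and in MC903 replicate 3 13.5 times. On GRCm38, which mm10 also denotes, GENCODE places Cyp24a1 at 170482708 to 170497145 on chromosome 2 as a protein-coding gene, and its values are sums over exons. The gene Pfdn4 on the other strand overlaps Cyp24a1, and Pfdn4 stood at 4.02 to 6.10 FPKM with phytic acid and 6.01 to 11.0 FPKM with MC903.

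Set within each library, the balance of the degrading and the last activating enzyme differed between the groups. The log2 ratio of Cyp24a1 to Cyp27b1 (each FPKM + 1) was 4.96, 6.72, 6.43 and 6.03 with phytic acid, against 10.63, 10.72, 8.42 and 10.84 with MC903. It averaged 6.03 ± 0.77 with phytic acid and 10.15 ± 1.16 with MC903 (SD, n = 4 each). With 1 added to each FPKM, the groups did not overlap. MC903 replicate 3 was again the nearest to the phytic acid libraries, and the difference of the means was -4.12 with it and -4.70 without it. With Cyp27b1 close to 0 throughout, most of this ratio is the level of Cyp24a1. Cyp27b1 was below the added 1 in every library, so the separation depends on that addition. With 0.1 added the ratio was 7.20 to 9.18 with phytic acid and 9.49 to 13.16 with MC903. With nothing added the groups overlap. The ratio is then higher in phytic acid replicate 3 (89.6 over 0.0542 FPKM) than in MC903 replicate 3 (585 over 0.712 FPKM).

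Both target genes among the members were lower with phytic acid. Trpv6, an epithelial calcium channel that vitamin D induces in intestine, stood at 2.77, 5.87, 3.81 and 2.26 FPKM with phytic acid, against 7.20, 6.92, 5.72 and 5.78 FPKM with MC903. Of the phytic acid libraries, 3 lay below all MC903 libraries, and phytic acid replicate 2 lay among them. For Trpv6 the log2 fold change was -0.72 ± 0.21 (SE), with a 95% interval of -1.19 to -0.25 and an adjusted p of 0.0335 by limma. The call was lost without phytic acid replicate 1 (0.0856), 3 (0.0511) or 4 (0.0766), without MC903 replicate 1 (0.0899), 2 (0.0818) or 4 (0.0583), and with no filter (0.0663). Without phytic acid replicate 2 the log2 fold change was -0.92 with an adjusted p of 0.00663.

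Spp1 encodes osteopontin, a secreted phosphoprotein of bone, macrophages and injured epithelia. It stood at 6.15, 7.08, 5.02 and 9.61 FPKM with phytic acid, against 28.4, 12.9, 12.6 and 43.7 FPKM with MC903. The groups did not overlap, and the MC903 libraries were uneven, with replicates 1 and 4 well above replicates 2 and 3. For Spp1 the log2 fold change was -1.52 ± 0.37 (SE), with a 95% interval of -2.34 to -0.69 and an adjusted p of 0.0158 by limma. Markers of osteoclasts and osteoblasts summed to 140 to 165 FPKM with phytic acid and 201 to 367 FPKM with MC903. Of their 6 genes, Ctsk and Acp5 were called lower, while Calcr, Ibsp and Bglap were at 0.211 FPKM or less in every library. Of the 10 macrophage and monocyte markers given above, 4 were called higher, 0 were called lower by limma and 6 were not called. The part of any of these cells in the Spp1 result was not tested.

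The promoters of these 2 target genes are shown because these are the members described as targets, and both were called lower. The sequences are from RefSeq on GRCm38.p6 and give the 250 bases before the annotated start, read 5′ to 3′ on the gene's strand. Capitals mark the nuclear receptor half-sites searched for on both strands, AGGTCA and its variants AGTTCA, then GGGTCA, and lastly GGTTCA. The windows are chr6:41636406-41636655 (minus strand) for Trpv6 and chr5:104434861-104435110 (plus strand) for Spp1.
Trpv6: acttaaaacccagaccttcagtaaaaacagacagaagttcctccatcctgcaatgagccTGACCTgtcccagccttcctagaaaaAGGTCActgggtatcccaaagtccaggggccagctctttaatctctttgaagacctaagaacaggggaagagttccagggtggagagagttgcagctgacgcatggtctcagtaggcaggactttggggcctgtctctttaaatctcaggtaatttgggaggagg
Spp1: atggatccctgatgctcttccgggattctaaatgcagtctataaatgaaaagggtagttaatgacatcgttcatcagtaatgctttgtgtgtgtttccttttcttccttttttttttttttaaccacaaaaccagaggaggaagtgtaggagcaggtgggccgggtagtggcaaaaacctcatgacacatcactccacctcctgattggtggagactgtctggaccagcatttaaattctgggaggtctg
Trpv6 held 2 half-sites, beginning 191 and 165 bases before the start and lying on opposite strands, and Spp1 held none in this window or in that of its other annotated start. Of 32851 such windows, 38.6% held at least 1 of the half-sites. Entries were found for 8 of the 9 members, all but Cyp24a1, and 5 of their 11 windows (45.5%) held a half-site. The direct repeat of half-sites with a spacer of 3 bases (the DR3 element) was in none of the 11 windows and in 0.0396% of all windows. A match is a description of letters, and the absence of one says only that these letters are not in this window.

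Other genes of the pathway were taken from 5 lists by role. Of 47 such genes 31 were tested by limma, 6 were lower with phytic acid and 0 were higher, with a median log2 fold change of -0.02. An unadjusted p under 0.05, in either direction, was found for 8 of them. The share called was 19.4%, all of it lower. Of all genes tested, 11.6% were called lower and 25.8% were called in either direction. Counts stayed between 4 and 8 with 1 library left out, the lowest without MC903 replicate 1, and 1 gene was higher without phytic acid replicate 2 or without MC903 replicate 3. Among 10 receptor partners and coregulators, 1 of 9 tested was called lower. This was Hr (hairless), a corepressor of the receptor that is needed for hair growth in mice. Hr stood at 54.1, 74.5, 50.6 and 49.7 FPKM with phytic acid, against 93.8, 83.6, 78.8 and 88.6 FPKM with MC903. The groups did not overlap, and the log2 fold change was -0.60 ± 0.14 (SE; adjusted p = 0.0125 by limma). The coactivator genes Ncoa1, Ncoa2, Ncoa3, Med1 and Snw1 and the corepressor gene Ncor1 were not called, with log2 fold changes of -0.07 to 0.28.

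**Figure D3:**
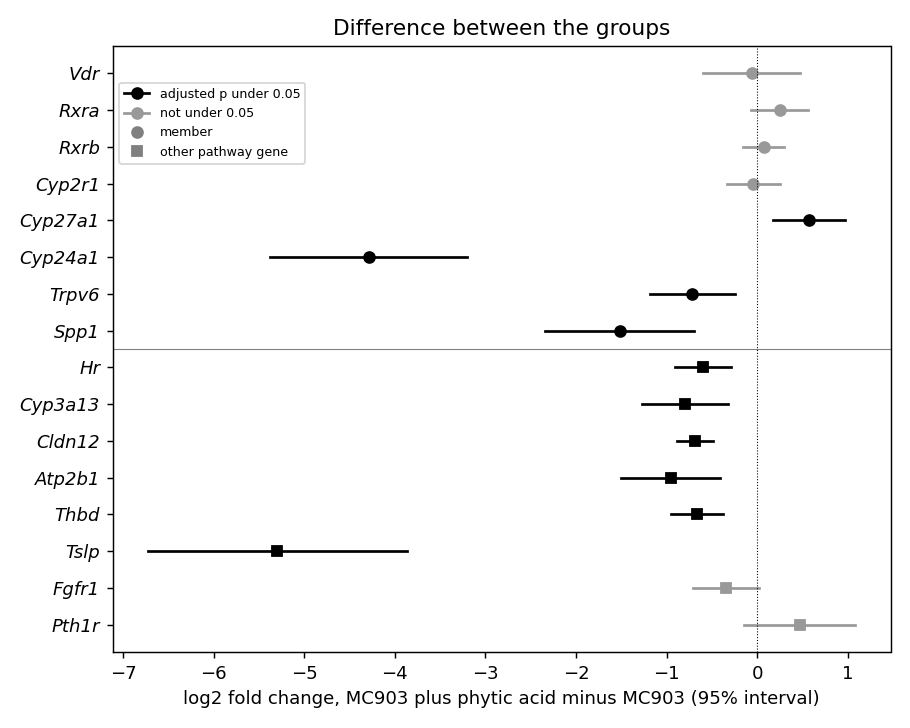
Log2 fold change, MC903 plus phytic acid minus MC903, with its 95% interval from limma, for the 8 tested members (circles) and 8 other pathway genes (squares, below the line). Black marks an adjusted p under 0.05, and Cyp24a1 (-4.29) and Tslp (-5.30) lie far from the others.

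Of the calcium handling targets 3 of 8 could be tested, and 2 were lower. Cldn12, a claudin through which vitamin D raises calcium passage in intestinal cells, stood at 6.51, 7.15, 6.92 and 6.90 FPKM with phytic acid, against 11.1, 10.7, 12.1 and 12.9 FPKM with MC903. All phytic acid libraries were below all MC903 libraries with little spread in either group, at a log2 fold change of -0.69 ± 0.09 (SE; adjusted p = 0.00101 by limma). Atp2b1, a plasma membrane calcium pump, stood at 14.9, 14.3, 13.1 and 15.7 FPKM with phytic acid, against 37.6, 28.3, 16.2 and 40.8 FPKM with MC903. MC903 replicate 3 lay just above the phytic acid libraries. The log2 fold change was -0.96 ± 0.24 (SE; adjusted p = 0.0194 by limma). It was -1.22 with an adjusted p of 2.65e-04 without MC903 replicate 3 and -0.83 with an adjusted p of 0.0581 without MC903 replicate 1. S100g, the calcium-binding protein calbindin-D9k, was at 24.3 FPKM in MC903 replicate 2 and at 0.326 to 2.76 FPKM in the other 7 libraries (adjusted p = 0.475 by limma). The intestinal and renal targets Trpv5 and Calb1 were at 0.0302 FPKM or less in every library.

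Of 14 other known targets, 11 were tested and 2 were lower. Tslp, the epidermal alarm cytokine gene that MC903 induces through the receptor in mouse skin, stood at 5.07, 31.1, 37.9 and 9.38 FPKM with phytic acid, against 1107, 1203, 349 and 401 FPKM with MC903. The groups were far apart, at a log2 fold change of -5.30 ± 0.64 (SE; adjusted p = 7.69e-04 by limma). Thbd (thrombomodulin), a vitamin D target in human cells, stood at 15.3, 10.9, 11.3 and 11.5 FPKM with phytic acid, against 17.5, 20.8, 18.4 and 22.9 FPKM with MC903, at a log2 fold change of -0.66 ± 0.13 (SE; adjusted p = 0.00600 by limma). The cell cycle inhibitor gene Cdkn1a, a long-known target, was even across the libraries, at 60.0 to 67.3 FPKM with phytic acid and 65.4 to 79.2 FPKM with MC903 (adjusted p = 0.310 by limma). Dusp10, a phosphatase of stress kinases, was not called (adjusted p = 0.0661 by limma), at 3.18, 1.48, 3.07 and 2.23 FPKM with phytic acid, against 0.664, 1.24, 2.23 and 0.879 FPKM with MC903. Hbegf, a growth factor of keratinocytes, was not called either (adjusted p = 0.0512 by limma), at 2.67, 1.26, 3.47 and 4.27 FPKM with phytic acid, against 5.07, 6.86, 3.70 and 8.75 FPKM with MC903. Dusp10 thus had the higher mean with phytic acid and Hbegf the lower, and both overlapped between the groups. Igfbp3, Txnip, Cd14, Nfkbia, Lrp5 and Pthlh also overlapped and were not called. Tnfsf11, which encodes RANKL, was chosen here after its values were seen. It was below the filter, at 0.395, 0.420, 0.333 and 0.548 FPKM with phytic acid, against 4.02, 1.34, 0.951 and 8.74 FPKM with MC903, and it was not tested.

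Among 10 genes of uptake, synthesis and side metabolism, 1 of 6 tested was called, lower with phytic acid. Cyp3a13, of a family that oxidises many steroids and drugs, stood at 4.83, 5.15, 4.99 and 3.30 FPKM with phytic acid, against 9.73, 11.8, 5.22 and 8.81 FPKM with MC903. The groups did not overlap, although MC903 replicate 3 lay just above the highest phytic acid library. The log2 fold change was -0.80 ± 0.21 (SE; adjusted p = 0.0237 by limma). The call was lost without phytic acid replicate 4 (0.0619) and without MC903 replicate 1 (0.0677), 2 (0.0625) or 4 (0.0569), and without MC903 replicate 3 the log2 fold change was -1.002 with an adjusted p of 0.00149. Dhcr7, which draws on the vitamin D precursor to make cholesterol, stood at 14.8 to 22.4 FPKM with phytic acid and 19.3 to 23.5 FPKM with MC903 and was not called. Gc, the blood carrier of vitamin D, and its uptake receptor Lrp2 were at 0.029 FPKM or less in every library. Of 5 genes of the wider hormone axis 2 were tested, 0 were called by limma and 0 had an unadjusted p under 0.05. Fgfr1, a receptor for Fgf23, had a log2 fold change of -0.34 ± 0.16 (SE; adjusted p = 0.156 by limma). Pth1r, the parathyroid hormone receptor, had one of 0.47 ± 0.27 (SE; adjusted p = 0.235 by limma).

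The genes whose profile lay nearest to that of Cyp24a1 were sought among the other 12157 tested genes that are no members. Likeness was the mean absolute difference, over the 8 libraries, of log2(FPKM + 1) after each gene's own mean was taken off. The nearest were Akr1d1 (0.230), a steroid reductase, Sprr2d (0.271) and Sprr1b (0.341), small proline-rich proteins of the cornified envelope, Cdhr1 (0.360), a cadherin-related gene, and Tubb3 (0.361), a beta tubulin best known from neurons. Akr1d1 stood at 4.08, 11.1, 9.50 and 7.07 FPKM with phytic acid, against 276, 238, 74.9 and 173 FPKM with MC903. Like Cyp24a1, it was lowest in phytic acid replicate 1 within its group and in MC903 replicate 3 within the other. All 5 genes were lower in each phytic acid library than in any MC903 library, and had their lowest MC903 value in MC903 replicate 3. The choice by likeness over the same libraries favours every such shared trait, so none of them is a separate result. Sprr genes have close copies in the genome, and how reads shared between them were counted is not stated in the labels.

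**Figure D4:**
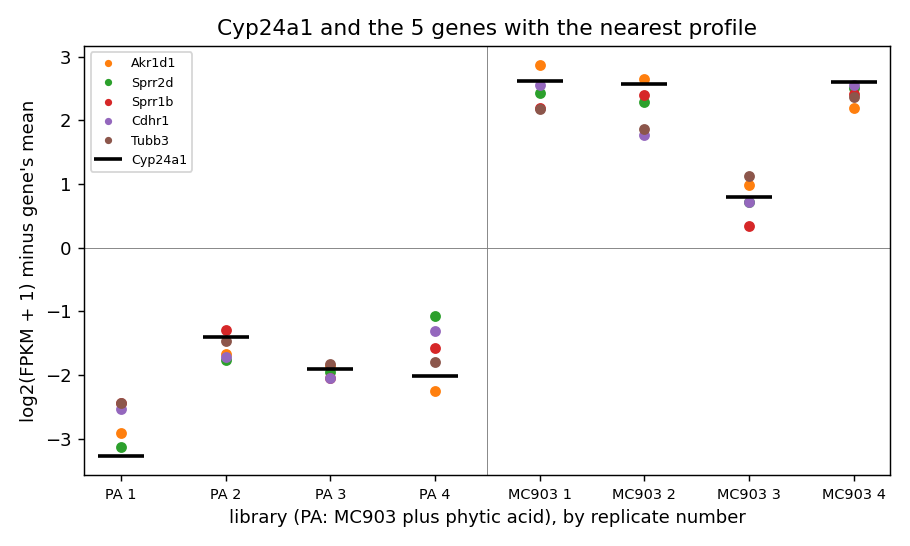
Level of Cyp24a1 (bars) and of the 5 genes with the nearest profile (points) in each library, as log2(FPKM + 1) minus the gene's mean over 8 libraries, with phytic acid on the left. All 6 genes are lower in each phytic acid library than in any MC903 library, and within MC903 all are lowest in replicate 3. The choice by likeness over these libraries favours such shared traits.

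Markers of other cell types were called in some lists and in others not. Of 8 hair follicle markers 2 could be tested, and they differed in direction. Tchh (trichohyalin), which made up most of the summed level in MC903 replicates 1, 2 and 4, was called lower, at 17.8 to 25.3 FPKM with phytic acid and 437 to 904 FPKM with MC903. Gata3 was not called (adjusted p = 0.0649 by limma), at 27.8, 28.5, 21.2 and 17.8 FPKM with phytic acid, against 8.56, 9.87, 26.8 and 8.14 FPKM with MC903. Without Tchh the hair follicle markers summed to 29.8, 30.2, 22.6 and 19.8 FPKM with phytic acid, against 10.8, 62.0, 3300 and 9.89 FPKM with MC903, so that MC903 replicates 1 and 4 lay below every phytic acid library. Fibroblast markers summed to 456 to 876 FPKM with phytic acid and 378 to 439 FPKM with MC903 (1 of 6 called higher). T cell markers summed to 7.81 to 18.3 FPKM with phytic acid and 2.58 to 5.40 FPKM with MC903 (3 of 3 tested higher). Adipocyte markers summed to 161 to 345 FPKM with phytic acid and 77.6 to 156 FPKM with MC903 (1 of 4 tested higher). Neutrophil markers summed to 14.3 to 161 FPKM with phytic acid and 121 to 741 FPKM with MC903 (2 of 5 tested lower). Most of this sum was S100a8 and S100a9, while the marker Ly6g was at 0.284 FPKM or less in every library and was not tested. S100a8 and Cxcr2 were called lower, and S100a9, Csf3r and Retnlg were not called. Nerve markers summed to 48.9 to 65.9 FPKM with phytic acid and 26.4 to 38.4 FPKM with MC903 (2 of 4 higher). Sebaceous gland markers summed to 704 to 1610 FPKM with phytic acid and 709 to 902 FPKM with MC903 (2 of 6 higher, 1 lower). Endothelial markers summed to 35.4 to 40.7 FPKM with phytic acid and 33.3 to 44.4 FPKM with MC903, and dissection stress genes to 114 to 233 FPKM with phytic acid and 139 to 234 FPKM with MC903. Of these 4 endothelial and 6 stress genes, 0 were called by limma and 0 had an unadjusted p under 0.05. The part of these differences in the results on the members was not tested.

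**Figure D5:**
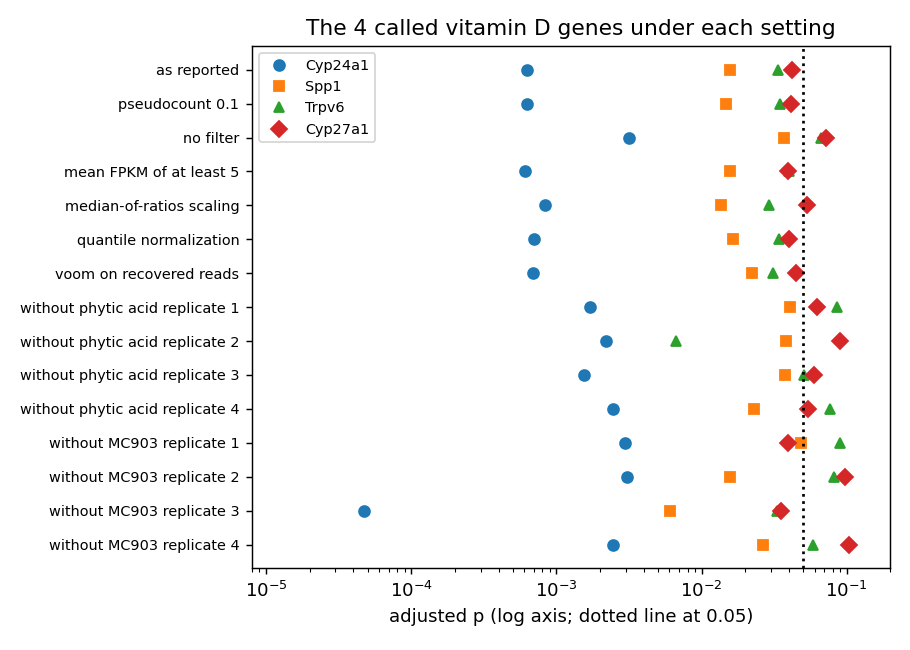
Adjusted p by limma (log axis, dotted line at 0.05) of the 4 called members as reported and under 14 of the 15 other settings, 1 row per setting (the replicate block is not plotted). Cyp24a1 and Spp1 lie below 0.05 in every row, while Trpv6 and Cyp27a1 cross the line in 7 and 8 rows.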

How the data were processed

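RNA of mouse skin was sequenced in 8 libraries. The authors deposited 1 table of FPKM values by gene and library. The tools and build listed per the submitters' processing notes are cutadapt, HISAT2, TopHat2, DESeq and mm10, with no roles. Versions, gene annotation and strandedness count as not given in the sources used here. Reads of overlapping or antisense genes therefore cannot be told apart. Of 21959 rows, 51 without a gene name (at most 0.0238% of a column) were left out, and for 21 repeated names the row of highest mean was kept. FPKM times the exon length of GENCODE came out within 0.05 of whole reads in all libraries for 17509 of 17980 genes (97.4%), which gave reads and library totals.

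Genes that reached 1 FPKM in 4 or more libraries were tested on log2(FPKM + 1) with limma 3.58.1 in R 4.3.3 (lmFit, eBayes with trend), group as the single factor, two-sided, with Benjamini-Hochberg adjustment over all genes tested. The script was checked on simulated data. Members, pathway lists, marker lists and tests were chosen with earlier results of these data known. The text names all 9 members, up to 4 called genes of smallest p per pathway list (2 of smallest p where none was called) and the 5 genes nearest to Cyp24a1. Other genes are named as list members, for their low level or as markers. Alternatives were a pseudocount of 0.1, no filter, a minimum mean FPKM of 5, median-of-ratios scaling, quantile normalization, a replicate block, limma voom on the recovered reads, and leaving out each library.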

Additional observations from a re-analysis of the deposited data

Results flagged for a closer look

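Within groups of 4 libraries, 4 of 20 checks of the members' levels and of the enzyme ratio found 1 library far from the other 3, by Dixon's test at the 95% level. Chance flags about 1 in 20 groups. Cyp24a1 stood at 585.4 FPKM in MC903 replicate 3, while the other MC903 libraries lay at 2008 to 2066 FPKM. Vdr stood at 43.3 FPKM in the same library, and the others lay at 18.4 to 21.7 FPKM. The log2 ratio of Cyp24a1 to Cyp27b1 was 8.42 in the same library and 10.63 to 10.84 in the others, and this ratio is not independent of the level of Cyp24a1. Cyp27a1 stood at 28.8 FPKM in phytic acid replicate 2, against 18.8 to 19.8 FPKM in the other phytic acid libraries.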

How the results depend on the processing

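The 21 tested genes named by rule were recomputed under 15 alternatives, which gave 312 values, of which 289 kept their direction and side of the threshold and 21 lost their call. These 21 belonged to Cyp27a1, Trpv6, Cyp3a13 and Atp2b1. Direction turned for Vdr without MC903 replicate 3 (0.21) and for Cyp2r1 without phytic acid replicate 2 (0.039), neither of them called. With 1 library left out, Vdr ranged from -0.18 to 0.21 and Cyp2r1 from -0.13 to 0.039. Over the 15 alternatives the log2 fold change of Cyp24a1 ranged from -4.74 to -3.91 (adjusted p by limma 4.75e-05 to 0.00315) and that of Spp1 from -1.76 to -1.19 (0.00601 to 0.0483). Of the members, 4 were called as reported, 2 with no filter and 2 to 4 with 1 library left out. Of all genes tested 3134 were called as reported, 2013 to 3979 with 1 library left out, the lowest without MC903 replicate 1, and 2046 with a replicate block. The calls were 1722 higher and 1412 lower as reported, 1584 higher and 1712 lower with median-of-ratios scaling, and 1098 higher and 1111 lower with a minimum mean FPKM of 5. The labels number the libraries of each group 1 to 4 and do not say whether equal numbers are paired. Deviations of same-numbered libraries from the group means correlated at -0.283, -0.105, -0.286 and 0.225 over tested genes. Only for replicate 4 was the own number the best match. With 4 libraries a group, these correlations cannot show whether equal numbers share a batch. With the block Cyp27a1 was not called (0.0642), so that its call was lost under 9 of 15 alternatives, and the other members kept their side of the threshold. The difference in the log2 ratio of Cyp24a1 to Cyp27b1 was -4.12 as reported, -3.74 with a pseudocount of 0.1, and -4.70 to -3.76 with 1 library left out. Voom gave no value for Rxra, whose reads were not recovered as whole numbers, and a minimum mean FPKM of 5 gave none for Cyp2r1 and Pth1r. The depth limits Cyp27b1 (6 to 69 reads a library) and Cyp2r1 (51 to 112).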
